A study of Fraxinus excelsior with 182 samples.

Results

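Expression was compared between ash trees in which the SOC1-like MADS-box gene Fe_g19663 was nearly silent in leaves and trees in which it was high. The low group was every tree with Fe_g19663 under 2 TPM, where TPM is a relative abundance corrected for transcript length with the same sum in every tree. The high group was the same number of trees with the highest values. This gave 28 low and 28 high trees of 182, and the remaining trees lay between them. The panel is of European ash (Fraxinus excelsior) from Denmark, with 1 leaf library from each of 182 different trees. The study analysed this panel for genes related to damage from ash dieback, a disease caused by the fungus Hymenoscyphus fraxineus, and its text places the RNA sampling at the time of flushing. Damage scores and flushing dates per tree were not used here, so the groups are groups of expression and not of health or timing. Age, site and relatedness of the trees were not used either.

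MADS-box genes encode DNA-binding transcription factors that control flowering time, bud dormancy and organ identity in plants. In Arabidopsis, SOC1 gathers signals from day length, cold and age and promotes flowering, and SVP is a repressor of flowering that binds and represses SOC1. JOINTLESS, first known in tomato for the abscission zone of the flower stalk, is close to the dormancy-associated MADS-box genes of fruit trees, whose expression follows the dormancy of buds. These roles come from other species, and names ending in "-like" rest on the study's tree of protein sequences.

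Fe_g19663 chose the groups, so its values are a description and were not tested. In the low trees it ranged from 0 to 1.92 TPM with a median of 1.06, and it was listed at 0 in 2 trees and under 1 TPM in 13. In the high trees it ranged from 22 to 46.4 TPM with a median of 25.4. The low threshold divided a continuous range, since the highest low tree, Ash204, had 1.92 TPM and the next tree above it, Ash22, had 2.04. At the other end Ash185, the lowest high tree, had 22.0023 TPM and Ash165, just outside, had 21.9929. The median of all trees was 12.2 TPM.

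The groups took different tree numbers, which are the only numbers in the labels and whose meaning the labels do not give. Low trees had a mean number of 85.8 ± 82.9 (SD, n = 28) and high trees 143.2 ± 33.8 (SD, n = 28), a difference with a two-sided permutation p of 0.0014. In successive bands of 50 numbers there were 14, 5, 1 and 2 low trees, and 6 in a shorter band above 200. The high trees in these 5 bands numbered 0, 3, 12, 12 and 1. Over all 182 trees the median of Fe_g19663 followed the same course, at 3.24, 9.61, 19.9, 20.3 and 7.58 TPM in the 5 bands. The SVP-like gene Fe_g22999 ran the other way, at 25.02, 18.3, 7.75, 7.90 and 23.1 TPM. What the numbers stand for cannot be told apart from the groups in these data, so the comparison was also fitted with a smooth curve of tree number.

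**Figure D1:**
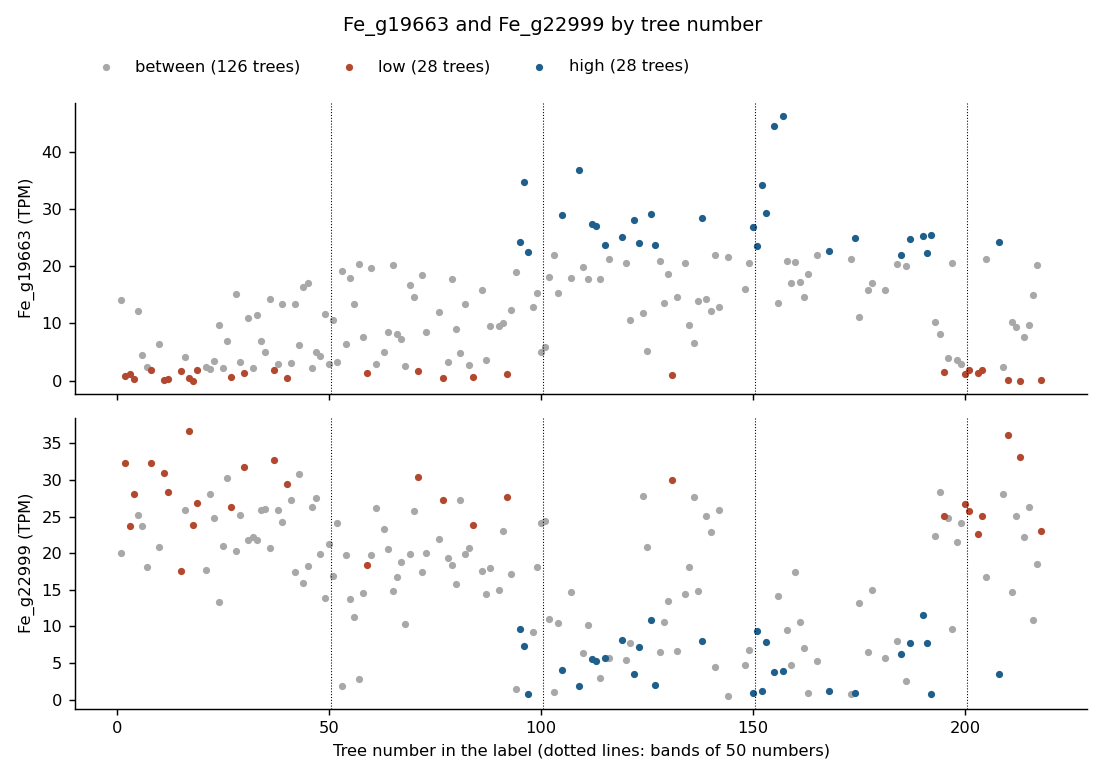
TPM of Fe_g19663 (top) and Fe_g22999 (bottom) in each of 182 trees against the tree number in the label, with dotted lines between bands of 50 numbers and colours for the 28 low, 28 high and other trees. Low trees lie at both ends of the number range, and no high tree has a number under 95.

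None of 3 library measures passed a test between the groups. Low trees had 33655 ± 459 genes above 0 TPM and high trees 33727 ± 383 (SD, n = 28 each, permutation p = 0.525). The 10 most abundant genes held 6.20% ± 1.64 of TPM in low and 6.996% ± 2.21 in high trees (SD, n = 28 each, permutation p = 0.135). The log2 scaling factor of a tree, the median ratio of its genes to their mean over trees, was higher in the high trees by 0.0521 (permutation p = 0.0543). Of the 42 trees whose profile stood apart from the rest of the panel, 5 were low and 8 were high. Without them 670 genes were higher and 274 lower. Of the 670, 396 were among the 917 called higher with these trees included, and the overlap of lower genes was also partial. Genes for plastid pigments, used here as a check of leaf tissue, were present in both groups. The coproporphyrinogen-III oxidase Fe_g32180, of chlorophyll synthesis, was at 574 TPM or more in every low tree and at 515 or more in every high tree.

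Over the whole transcriptome the difference was small and leaned towards higher values in the high trees. Of 31002 genes tested, 917 (2.96%) were higher in the high trees and 304 (0.981%) were lower. With a difference of at least 1 on the log2(TPM + 1) scale in addition, 55 (0.177%) were higher and 33 (0.106%) were lower. The excess of higher genes depended on the scaling of the libraries, since 401 were higher and 411 lower after median-of-ratios scaling. With a curve of tree number in the fit, 1 gene was called higher and 1 lower (0.00323% each), and 3309 genes had an unadjusted p under 0.05 against 6198 without it. The 2 that kept a call were the JOINTLESS-like gene Fe_g18379 and the SVP-like gene Fe_g22999, so every other call between the groups was lost in that fit. Of the 57 named genes called without it 56 kept their direction with it and 22 had a difference at least as large. Both fits used the same trees, so this is a description. Over the 57 the median was 0.862 times the difference without the curve, and the SE was 1.51 to 1.81 times as large. In bulk leaf tissue, fewer cells that express a gene and less RNA per cell cannot be told apart.

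All 10 other MADS-box genes of the study differed between the groups, against the 3.94% of all genes called in either direction. The 3 SOC1-like and the 6 JOINTLESS-like genes were higher in the trees with high Fe_g19663, and the SVP-like gene was lower. Their median difference was 1.70 on the log2(TPM + 1) scale, against 0.04 for all genes tested. The study selected these genes on the same trees for their relation to damage, so their common direction is not independent evidence. Salmon divides reads among similar transcripts, so levels of close paralogs are uncertain. With the curve of tree number all 10 kept their direction, at a median of 0.676 times the difference without it.

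**Figure D2:**
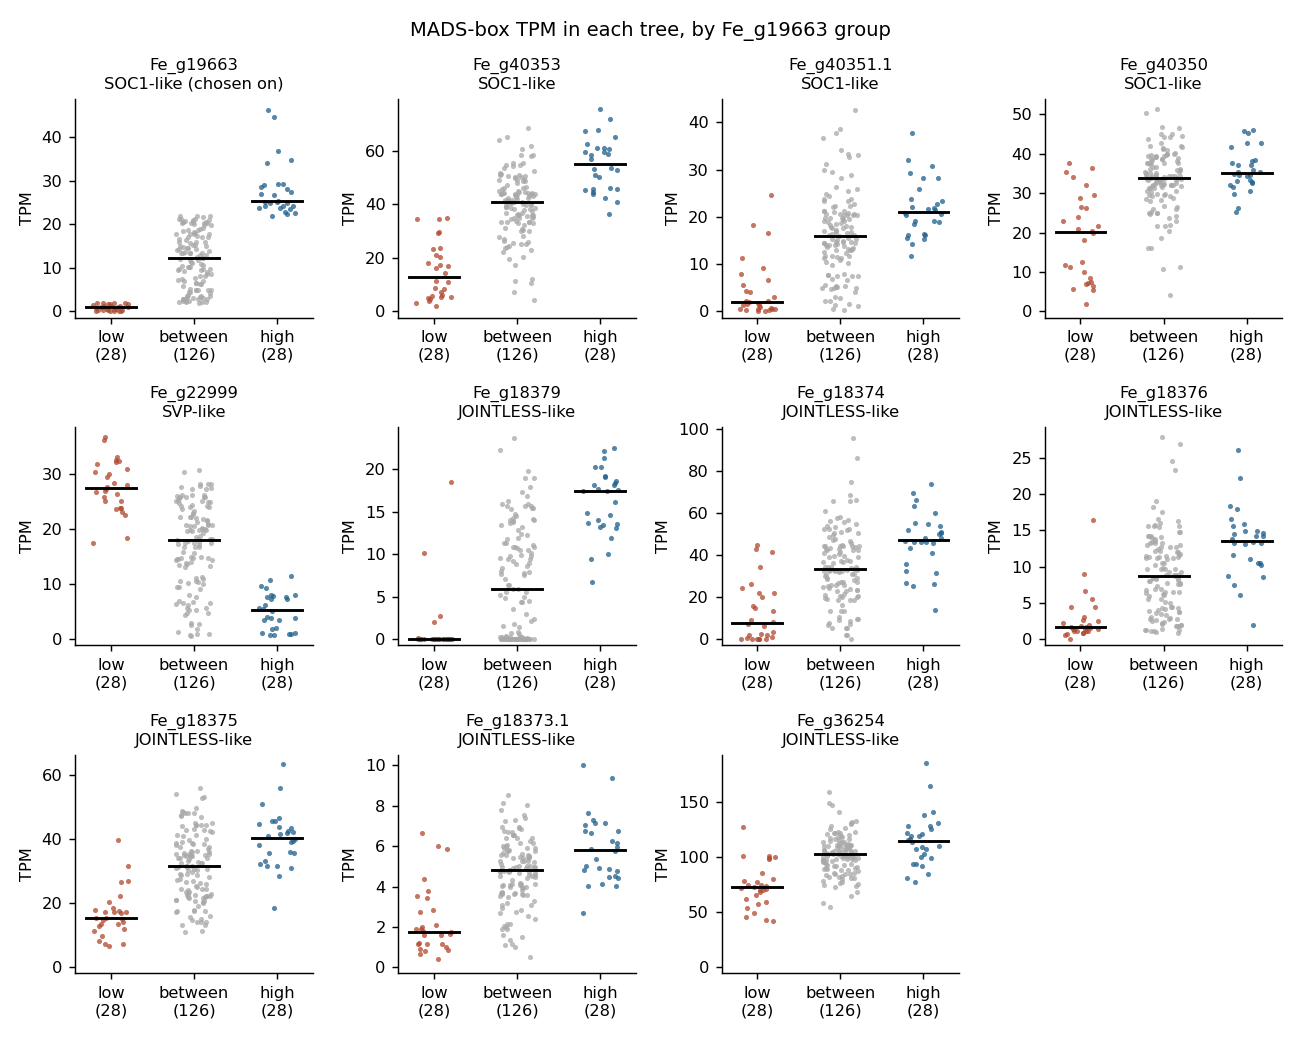
TPM of 11 MADS-box genes in every tree, as points, for the 28 low trees, the trees between and the 28 high trees, with the group median as a bar. Fe_g19663 set the groups. The low and high points of Fe_g40353 and Fe_g22999 do not overlap, and Fe_g18379 sits at 0 in most low trees.

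The SVP-like gene Fe_g22999, related to the Arabidopsis repressor of SOC1, showed the clearest fall. It had 17.6 TPM in the lowest low tree, 27.5 at the median and 36.7 in the highest. In the high trees these values were 0.733, 5.41 and 11.6 TPM. Every low tree was above every high tree, and this was the only gene of 31002 with that pattern (0.00323%). The difference was -2.43 ± 0.18 on the log2 scale (SE, n = 28 each, adjusted p = 2.15e-15), and it was -2.37 ± 0.32 with the curve of tree number (adjusted p = 1.84e-05). Since the groups did not overlap at all, they had to stay apart within the 4 bands of tree number that held both. The values by band are therefore a description and no further test. In the second band the 5 low trees had 18.4 to 30.4 TPM and the 3 high trees 0.733 to 9.63, and the single low tree of the third band had 30.02 TPM against at most 10.9 in 12 high trees. In the fourth band the 2 low trees had 25.04 and 26.7 TPM and the 12 high trees at most 11.6, and in the last band the 6 low trees had at least 22.6 TPM and the high tree 3.50.

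Fe_g40353 was the SOC1-like gene that separated the groups completely. It had 2.04, 12.7 and 34.9 TPM in the lowest, middle and highest low tree and 36.4, 55.2 and 75.5 TPM in the high trees. No other gene tested was higher in every high tree than in every low tree (1 of 31002, 0.00323%). The difference was 2.11 ± 0.20 (SE, n = 28 each, adjusted p = 3.83e-11), and 1.19 ± 0.30 with the curve of tree number (adjusted p = 0.298).

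The other SOC1-like genes differed with overlap. Fe_g40351.1 had 0, 1.94 and 24.7 TPM in the low trees and 11.7, 21.1 and 37.65 in the high trees, at the lowest, median and highest tree. Its difference was 2.65 ± 0.26 (SE, adjusted p = 9.74e-11) and 1.56 ± 0.42 with the curve (adjusted p = 0.313), and 25 of the 28 low trees were below every high tree. Fe_g40350 had 2.02, 20.1 and 37.6 TPM in the low and 25.1, 35.1 and 45.9 TPM in the high trees. It had the smallest difference of the SOC1-like genes, at 1.14 ± 0.18 (SE, adjusted p = 7.13e-05) and 0.45 ± 0.28 with the curve (adjusted p = 0.479), and 9 low trees lay within the range of the high trees.

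Among the JOINTLESS-like genes, Fe_g18379 was nearly an on/off gene between the groups. It was listed at 0 TPM in 21 of 28 low trees and in 0 of 28 high trees (Fisher's exact test, two-sided p = 1.76e-09). The highest low tree had 18.4 TPM, and the high trees had 6.70, 17.4 and 22.4 TPM at the lowest, median and highest. Only Ash59 and Ash203 among the low trees fell within the range of the high trees. The difference was 3.64 ± 0.21 on the log2 scale (SE, n = 28 each, adjusted p = 1.52e-19), the largest of any gene tested, and 3.42 ± 0.37 with the curve of tree number (adjusted p = 3.41e-08).

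Of the 5 other JOINTLESS-like genes, the 4 whose identifiers run from Fe_g18373 to Fe_g18376 were low or moderate in the low trees. Fe_g18374 had 0, 7.73 and 44.7 TPM in the low and 13.9, 47.5 and 73.8 TPM in the high trees, a difference of 2.71 ± 0.38 (SE, adjusted p = 3.33e-06). Fe_g18376 had 0.111, 1.65 and 16.4 TPM in the low and 2.03, 13.6 and 26.1 TPM in the high trees, a difference of 2.11 ± 0.19 (SE, adjusted p = 1.78e-11). Both overlapped, with 11 low trees within the range of the high trees for Fe_g18374 and 10 for Fe_g18376. Fe_g18375 had 6.65, 15.3 and 39.6 TPM in the low and 18.5, 40.5 and 63.4 TPM in the high trees, a difference of 1.29 ± 0.13 (SE, adjusted p = 8.50e-11). Fe_g18373.1 was the lowest of the run in the high trees, with a median of 5.80 TPM against 1.77 in the low trees, and differed by 1.16 ± 0.14 (SE, adjusted p = 6.01e-08). With the curve of tree number the differences of Fe_g18373.1, Fe_g18374, Fe_g18375 and Fe_g18376 were 0.62 ± 0.22, 2.06 ± 0.59, 0.77 ± 0.20 and 1.69 ± 0.34 (SE, adjusted p of 0.463, 0.388, 0.298 and 0.0663). Fe_g18374 and Fe_g18376 thus kept most of their difference and Fe_g18373.1 and Fe_g18375 less of it. Of these 4, only Fe_g18376 was called with bands of tree number (1.71 ± 0.30, SE, limma adjusted p = 0.00699).

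Fe_g36254, the JOINTLESS-like gene with the highest TPM, differed least. Its low trees had 42.2, 72.4 and 127.2 TPM and its high trees 77.2, 114.3 and 185.1 TPM, a difference of 0.65 ± 0.09 (SE, adjusted p = 3.33e-06) and 0.56 ± 0.15 with the curve (adjusted p = 0.332). It was at 42.2 TPM or more in every tree of both groups, unlike the other JOINTLESS-like genes, which were near or at 0 or below 10 TPM in at least 1 low tree. Fe_g18377, a gene without annotation here whose identifier lies inside the JOINTLESS-like run, was at 0 TPM in 25 low trees and 1 high tree. Its level was low throughout, with a median of 0 and a maximum of 0.575 TPM in the low and a median of 0.867 TPM in the high trees.

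The low trees were not alike in these genes. Of 28 low trees, 11 had none of the 10 other MADS-box genes within the range of the high trees, and 17 had 1 or more. Ash203 had 8 of the 10 within that range, Ash59 and Ash201 had 7, and Ash84 and Ash195 had 6, although their Fe_g19663 lay between 0.643 and 1.84 TPM. Fe_g40353 and Fe_g22999 were outside the range of the high trees in all of them. Of the 2 low trees with Fe_g19663 listed at 0, Ash18 and Ash213, neither had any MADS-box gene within the high range. Ash18 and Ash59 were among the trees whose whole profile stood apart from the panel, so their values may reflect atypical libraries, which was not tested.

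**Figure D3:**
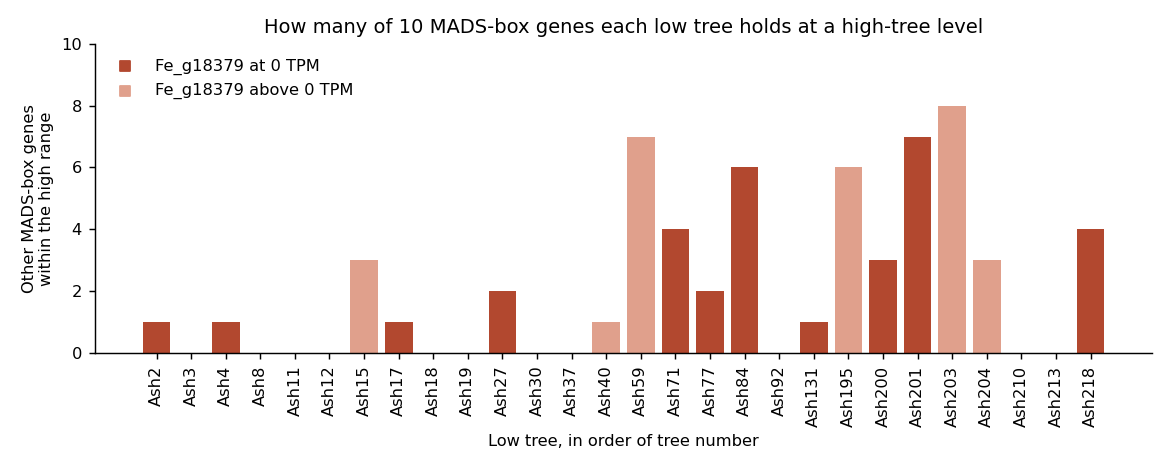
Number of the 10 other MADS-box genes (y axis) whose TPM in a low tree lies within the range of the 28 high trees, for each of 28 low trees in order of tree number (x axis). Dark bars are trees with Fe_g18379 at 0 TPM. The count is 0 in 11 trees and highest in Ash203, at 8.

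The trees between the groups were set by the same ranking on Fe_g19663 but did not enter the comparison of low and high trees. They showed whether the same genes moved with Fe_g19663 by degrees. A slope here is the change in log2(TPM + 1) of a gene for each unit of log2(TPM + 1) of Fe_g19663. Of 31002 genes, 19 (0.0613%) had a positive and 24 (0.0774%) a negative slope that passed, and of the 10 MADS-box genes 7 were positive and 1 negative. These trees share the panel with earlier results that had shown the same relations, so they are not independent support. After median-of-ratios scaling 2478 genes were positive and 2202 negative, among them the same 19 and 24. The unadjusted counts were closer, at 7348 genes with a p under 0.05 without scaling and 11221 with it.

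Fe_g22999 fell with Fe_g19663 in these trees, with a slope of -0.62 ± 0.08 (SE, adjusted p = 1.75e-08) and a Spearman's rho of -0.70. Its values ran from 0.582 to 30.8 TPM, with 66 trees in the range of the low trees and 34 in that of the high trees. Within the low and within the high group rho was -0.23 and -0.02. Fe_g40353 rose, with a slope of 0.40 ± 0.04 (SE, adjusted p = 8.58e-11), and its rho was 0.58, 0.64 and 0.60 in the low, between and high trees. The rho of Fe_g40353 thus varied little over the 3 sets of trees and that of Fe_g22999 varied more, a difference that was not tested. With the curve of tree number these were the only 2 genes whose slope passed (0.00323% each), at -0.48 ± 0.09 (adjusted p = 0.00393) and 0.34 ± 0.04 (adjusted p = 2.58e-07).

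The slope was steepest for Fe_g18379, at 1.003 ± 0.15 (SE, adjusted p = 1.85e-06). It was listed at 0 TPM in 30 of these trees and had a median of 5.97 TPM, between those of the groups. Fe_g40351.1 had a slope of 0.60 ± 0.08 (adjusted p = 2.68e-07) and Fe_g18376 of 0.49 ± 0.08 (adjusted p = 0.000179). The slopes of Fe_g40350 and Fe_g36254 did not pass, at 0.13 ± 0.04 and 0.06 ± 0.03 (adjusted p of 0.105 and 0.157). For Fe_g40350 the median of the trees between, 33.7 TPM, was already close to the 35.1 TPM of the high trees.

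**Figure D4:**
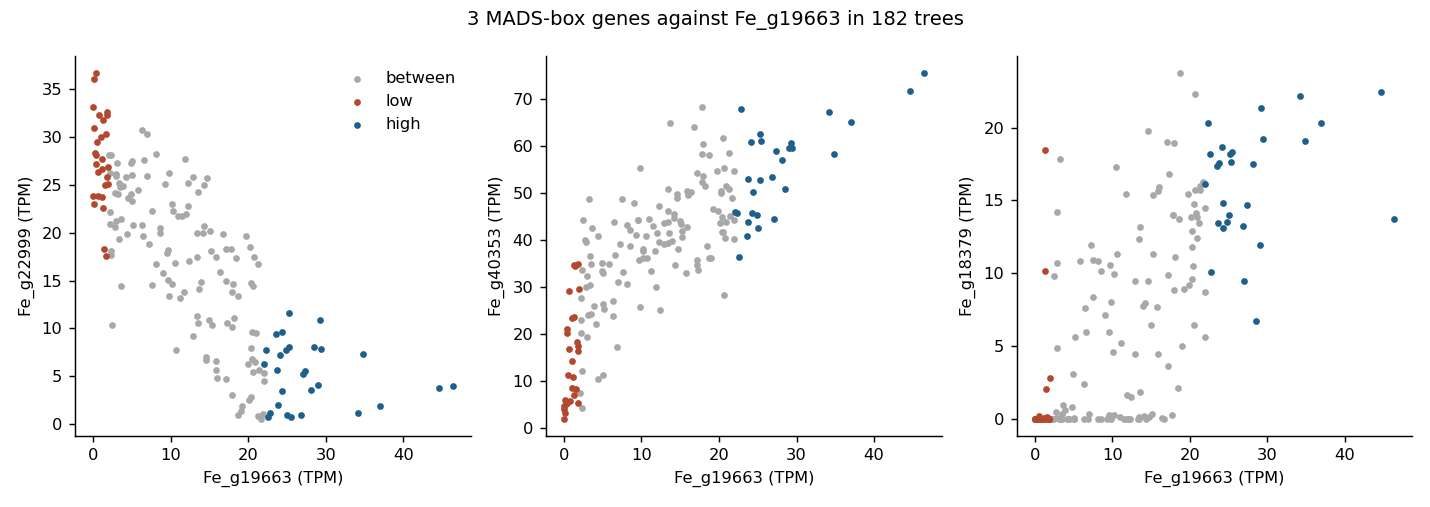
TPM of Fe_g22999, Fe_g40353 and Fe_g18379 (y axes) against TPM of Fe_g19663 (x axes) in 182 trees, coloured by group. Fe_g22999 declines across the trees between the groups and stays at or under 11.6 TPM in the high trees, Fe_g40353 climbs through all 3 groups, and Fe_g18379 has trees at 0 only in the low and between groups.

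The genes whose ranks over these trees were most like those of Fe_g19663 were Fe_g40353 at a rho of 0.64, Fe_g18379 at 0.57, Fe_g40351.1 at 0.51, Fe_g18376 at 0.41 and Fe_g17934 at 0.41. Fe_g17934 has no annotation here and was low, with a median of 1.18 TPM in the low and 1.54 TPM in the high trees. Its difference was 0.24 ± 0.07 (SE, adjusted p = 0.0442), and the call was lost after scaling (adjusted p = 0.10). The points share libraries, so these values are descriptions. Of the 917 genes called higher in the high trees, 850 had a positive slope and 10 passed. Of the 304 called lower, 293 had a negative slope and 13 passed. Over all genes tested, 0.0613% passed with a positive and 0.0774% with a negative slope, and the median slope was -0.007. With the curve of tree number 1 slope passed each way, so these counts do not separate Fe_g19663 from tree number.

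Of the 10 identifiers within 5 numbers of Fe_g19663, 7 were tested and 1, Fe_g19664.2, was called, against the 3.94% of all genes called in either direction. It was at a median of 1.83 TPM in the low and 2.55 TPM in the high trees. Its difference was 0.39 ± 0.09 (SE, adjusted p = 0.00639). Fe_g19660 had medians of 0.458 and 1.398 TPM and a larger difference, but did not pass (0.54 ± 0.17, adjusted p = 0.0604). The best expressed neighbour, Fe_g19661, had medians of 18.1 and 18.8 TPM and a difference of 0.18 ± 0.09 (adjusted p = 0.272). Genome positions were not used here, so nearness by identifier is all that was compared.

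Genes outside the MADS-box family were grouped into lists by the study's annotation of its damage-related genes. Of 88 genes in 16 lists, 21 were higher in the high trees, 11 were lower and 56 were not called, against 2.96% and 0.981% of all genes. Their median difference was 0.17, against 0.04 for all genes. The study chose them on these trees, so neither counts nor directions are independent evidence. That limit and these shares of all genes hold for the counts of each single list below. With the curve of tree number 0 of the 88 passed with limma, although 31 of the 32 called without it kept their direction and 12 had a difference at least as large. Their median was 0.827 times the difference without the curve, and their SE was 1.56 to 1.81 times as large. None had low and high trees that did not overlap. Without the trees that stood apart, the calls of Fe_g39558, Fe_g18326, Fe_g37082, Fe_g31622.1 and Fe_g16647 were lost. With 5 principal components those of Fe_g6059, Fe_g4298.2, Fe_g35485.1, Fe_g18326, Fe_g37082, Fe_g8282, Fe_g6658, Fe_g21651, Fe_g16647, Fe_g2619, Fe_g30083 and Fe_g11920 were lost.

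**Figure D5:**
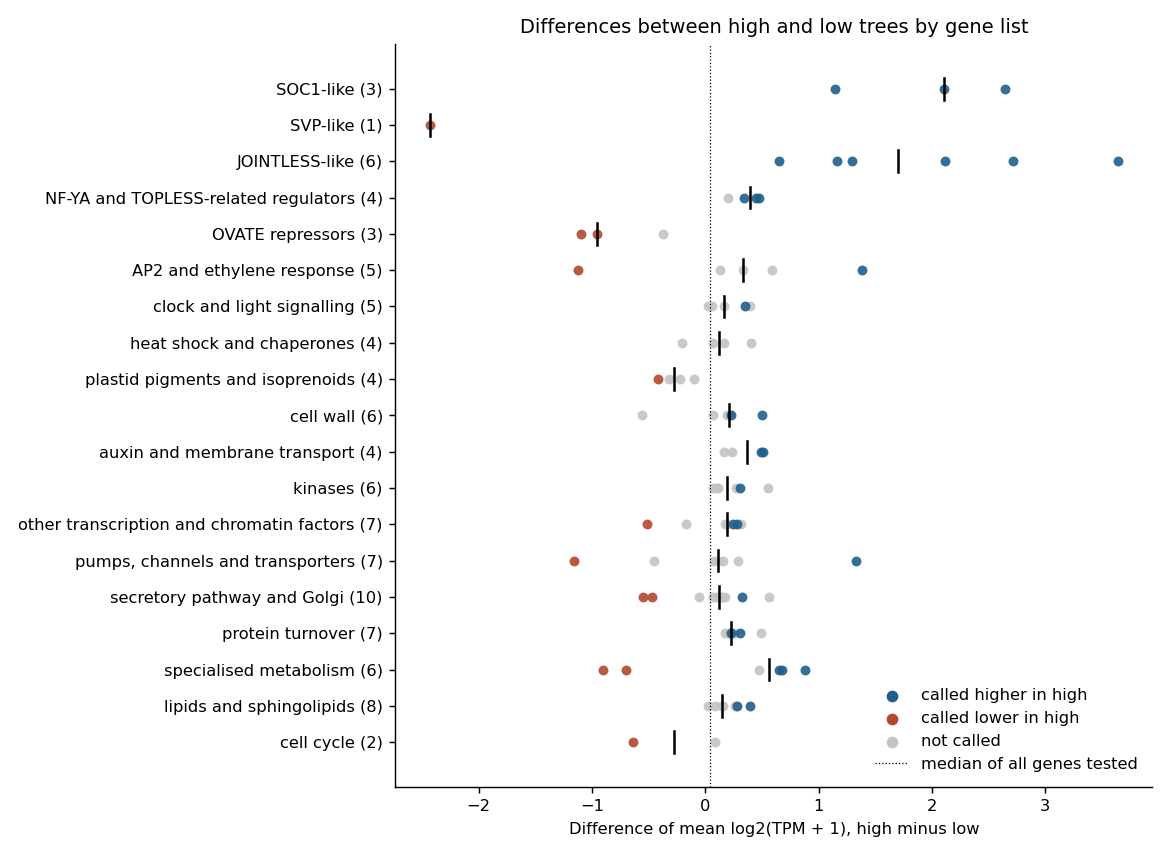
Difference of mean log2(TPM + 1), high minus low trees (x axis), for each gene of 19 lists (y axis, number of genes in brackets), with list medians as bars and the median of all genes tested as a dotted line. Blue and red points were called higher and lower at an adjusted p of 0.05, and the MADS-box lists lie farthest from 0.

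Among the regulators of transcription, calls were higher for NF-YA and TOPLESS-related genes and lower for OVATE genes. NF-YA proteins bind CCAAT motifs in promoters, and TOPLESS proteins are co-repressors recruited by other factors. Of these 4 genes 3 were higher, with a list median of 0.40. The NF-YA gene Fe_g14387 had 3.22, 5.49 and 8.05 TPM in the low and 5.58, 7.48 and 13.2 TPM in the high trees, a difference of 0.45 ± 0.07 (SE, adjusted p = 4.93e-05). The groups overlapped for it, as for every other gene of these lists. The second NF-YA gene, Fe_g23914, differed by 0.48 ± 0.08 (adjusted p = 0.000431), and the TOPLESS-related Fe_g6059 by 0.34 ± 0.09 (adjusted p = 0.0187).

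OVATE proteins are repressors of transcription known for shaping fruits and leaves in other species, and 2 of the 3 listed genes were lower in the high trees, with a list median of -0.96. Fe_g34396 had a median of 3.07 TPM in the low and 0.860 TPM in the high trees, a difference of -0.96 ± 0.20 (SE, adjusted p = 0.00343). Fe_g34397 had medians of 8.05 and 2.40 TPM and differed by -1.09 ± 0.27 (adjusted p = 0.0129). The third, Fe_g20799, had medians of 3.08 and 2.37 TPM and did not pass (adjusted p = 0.153). The called genes Fe_g34396 and Fe_g34397 are neighbours by identifier, and whether their levels are separate was not tested. Both were at 0 TPM in some trees of each group.

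The 5 AP2 and ethylene response genes split. Members of this family bind DNA through an AP2 domain, and part of them act downstream of the hormone ethylene. The ethylene-responsive factor Fe_g44002 had 0, 0.495 and 4.10 TPM in the low and 0.527, 3.24 and 11.5 TPM in the high trees, a difference of 1.38 ± 0.18 (SE, adjusted p = 1.27e-06). The AP2-domain gene Fe_g27900 went the other way, with 22.7, 47.8 and 114.1 TPM in the low and 9.96, 21.8 and 52.5 TPM in the high trees. Its difference was -1.12 ± 0.14 (SE, adjusted p = 1.13e-07), and it also fell with Fe_g19663 in the trees between (slope -0.29 ± 0.05, adjusted p = 0.000179). The remaining 3 were not called, and the list median was 0.34.

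Of 7 other transcription and chromatin factors 2 were higher and 1 was lower, with a median of 0.19. The AT-hook gene Fe_g44077.1, of a family that binds AT-rich DNA, was lower, with medians of 0.969 and 0.373 TPM and a difference of -0.51 ± 0.08 (adjusted p = 7.13e-05). The DIVARICATA-like Fe_g37082 and the TUB gene Fe_g8282 differed by 0.28 ± 0.09 and 0.24 ± 0.07 (adjusted p of 0.0496 and 0.0492), and both calls were lost after scaling (0.0894 and 0.0681). Of 5 clock and light signalling genes 1 was higher, with a list median of 0.16. It was the embryonic flower gene Fe_g10721, related to an Arabidopsis repressor of flowering, at 1.49 TPM in the low and 2.34 TPM in the high trees at the median (0.35 ± 0.08, adjusted p = 0.0114). The cell cycle list held 2 genes, with a median of -0.28. The CDK inhibitor Fe_g23915, of a family that restrains division, was lower, with medians of 2.93 and 1.37 TPM and a difference of -0.64 ± 0.12 (adjusted p = 0.000545), and the cyclin Fe_g28984.3 did not pass (0.09 ± 0.05, adjusted p = 0.35).

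Among the transport genes 1 large difference was called in each direction. Of 7 pumps, channels and transporters 1 was higher, 1 was lower and 5 were not called, against 2.96% and 0.981% of all genes. The list median was 0.11. The P-type cation ATPase Fe_g25658, an ion pump, had 0.354, 1.58 and 8.0 TPM in the low and 1.32, 5.97 and 16.6 TPM in the high trees, a difference of 1.33 ± 0.19 (SE, adjusted p = 8.77e-06). The MATE transporter Fe_g40685, of a family that exports metabolites, had 31.7, 91.5 and 256 TPM in the low and 3.98, 49.2 and 90.6 TPM in the high trees. Its difference was -1.16 ± 0.24 (SE, adjusted p = 0.00353), and its slope in the trees between was -0.34 ± 0.07 (adjusted p = 0.026). Of 4 auxin and membrane transport genes 2 were higher, with a median of 0.37. They were Fe_g28064 and Fe_g28062, both annotated as membrane transport proteins, at 0.51 ± 0.12 and 0.49 ± 0.12 (adjusted p of 0.0093 and 0.0115), while the auxin influx carrier LAX3 gene Fe_g22928.1 had 0.24 ± 0.12 (adjusted p = 0.272).

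Specialised metabolism was the most mixed list, with 3 of 6 higher, 2 lower and a median of 0.56. The O-methyltransferase Fe_g35582 was lower, with medians of 3.28 and 0.855 TPM and a difference of -0.90 ± 0.21 (adjusted p = 0.00822). The NAD(P)H-binding gene Fe_g35305 was lower as well, with 2.41, 4.06 and 6.79 TPM in the low and 0.852, 2.18 and 4.66 TPM in the high trees (-0.70 ± 0.10, adjusted p = 3.33e-06). The UDP-glycosyltransferase Fe_g2619, of a family that attaches sugars to small molecules, was higher, with medians of 5.34 and 10.5 TPM (0.68 ± 0.18, adjusted p = 0.0227). The iron/ascorbate oxidoreductase Fe_g16647 was higher at 0.88 ± 0.24 (adjusted p = 0.0258), but its sign turned with the curve of tree number (-0.13). The calls within this list therefore had no common direction.

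Of 4 plastid genes 1 was lower and 3 were not called, with a list median of -0.27. The lower one was the isoprenoid kinase Fe_g39558, of the plastid pathway that supplies precursors of carotenoids and hormones, with medians of 17.1 and 11.9 TPM and a difference of -0.42 ± 0.11 (adjusted p = 0.0275). The divinyl reductase Fe_g5474, of chlorophyll synthesis, had -0.32 ± 0.10 (adjusted p = 0.0533) and the coproporphyrinogen-III oxidase Fe_g32180 had -0.23 ± 0.08 (adjusted p = 0.0928). No heat shock or chaperone gene of 4 passed by either test, limma or rank-sum, with differences from -0.21 to 0.40 and a median of 0.12. The small heat shock gene Fe_g3105 ran from 0.289 to 40.6 TPM in the low and from 0.917 to 35.1 TPM in the high trees. Its medians were 1.31 and 2.71 TPM.

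Of 6 cell wall genes 2 were higher, with a median of 0.21. The xyloglucan endotransglucosylase Fe_g4298.2, which cuts and rejoins wall polymers, had medians of 15.2 and 21.3 TPM and a difference of 0.50 ± 0.12 (adjusted p = 0.0112). The pectate lyase Fe_g35485.1, which cleaves pectin, had 0.23 ± 0.06 (adjusted p = 0.0183, and 0.0512 after scaling), whereas the pectate lyase Fe_g17679.1 had -0.56 ± 0.21 and did not pass (adjusted p = 0.11). Of 8 lipid and sphingolipid genes 2 were higher, with a median of 0.15, led by the desaturase Fe_g30083, which adds double bonds to fatty acids, with medians of 10.7 and 14.8 TPM (0.40 ± 0.08, adjusted p = 0.00354). Of 10 genes of the secretory pathway and Golgi 1 was higher and 2 were lower, with a median of 0.12. The lower ones were the Core-2 type glycosyltransferase genes Fe_g31622.1 and Fe_g31623.3, neighbours by identifier, at -0.55 ± 0.15 and -0.47 ± 0.13 (adjusted p of 0.0264 and 0.0241).

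Of 7 protein turnover genes 2 were higher, with a median of 0.23. The zinc finger gene Fe_g29324 had medians of 4.66 and 6.18 TPM (0.31 ± 0.06, adjusted p = 0.00301), and the F-box gene Fe_g21651, of a family that selects proteins for degradation, had 2.10 and 2.72 TPM (0.23 ± 0.07, adjusted p = 0.0415, and 0.0894 after scaling). Of 6 kinases 1 was higher, with a median of 0.19. It was the wall-associated kinase Fe_g18326, which had medians of 0.404 and 0.729 TPM, both near the floor of the measurement (0.31 ± 0.09, adjusted p = 0.0301, and 0.0581 after scaling). The cysteine-rich receptor-like kinase Fe_g38091 had a larger difference, 0.55 ± 0.23, but more spread and did not pass (adjusted p = 0.167).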

How the data were processed

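Leaf RNA of 182 trees was sequenced as 100 bp Illumina reads. The authors used Trimmomatic for trimming, mapped with Salmon 0.8 to the coding sequences of their ash genome, and read the estimates in with tximport. The deposited values are TPM, scaled by the authors to a sum of 1000000 per tree, so depth is unknown and counting error could not be set. The labels give all trees 1 tissue and no group. The members and lists were chosen with earlier results of these data known.

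Testing covered the 31002 genes, without Fe_g19663, that reached 1 TPM in 19 or more trees. Differences and slopes on log2(TPM + 1), a scale that understates the change of low genes, came from limma 3.58.1 under R 4.3.3, with trended empirical Bayes variances. Calls needed an adjusted p (Benjamini-Hochberg, over all genes tested) no larger than 0.05. Errors are SE unless given as SD. Single measures had two-sided permutation tests with 100000 resamples. Values came from Python 3.11.15. The fit was also run on values of each gene shuffled over the low and high trees, with known differences added to some genes. That shuffling removes relations between genes and with tree number, so it says nothing about their influence here. Trees were treated as independent, an assumption that was not tested, and p-values set differences against the spread between trees. Relatedness was not used and the groups differed in tree number, so the p-values may be too small.

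Named genes were the 10 MADS-box genes, up to 4 of each list (those with the largest difference in longer lists), the 6 largest called differences each way outside the lists, identifiers within 5 of Fe_g19663, 4 genes whose share of trees at 0 differed most, and the 5 with the highest rho over the trees between. Genes named only as keeping or losing a call follow from that result. Alternatives changed the pseudocount, filter, scaling, test, group threshold, covariates and trees used. The curve of tree number was a natural spline with 4 degrees of freedom, chosen after seeing the data, as were bands of 50 numbers.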

Additional observations from a re-analysis of the deposited data

How the results depend on the processing

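Depth is unknown, so no limit from counting could be set. Of the genes tested, 2.96% were higher and 0.981% lower in the high trees. Median-of-ratios scaling gave 1.29% higher, and no filter, with 40847 genes tested, 1.92% higher. A low group under 1 TPM gave 0.319% lower, and one under 4 TPM 5.08% higher and 1.73% lower. Tree number as a straight line gave 0.545% lower, 5 principal components 0.790% higher and 1.98% lower, and the low group against all other trees 0.155% higher and 0.177% lower. The spline of tree number gave 0.00323% each way and the bands 0.00645% (1719 genes at an unadjusted p under 0.05), both chosen after seeing the data. All other shares stayed within 1.5 times. They include a pseudocount of 0.1, the rank test, genes above 0 as covariate, the fit without 13 trees that stood apart, and the share lower with no filter. A similar share does not mean the same genes. Under 1 TPM 428 of 716 genes called higher were also called in the first comparison, and 458 of 639 with the straight line. Slopes went from 0.0613% rising and 0.0774% falling to 7.99% and 7.10% after scaling, 8.17% and 3.43% over all 182 trees, 0.0387% rising with 5 components and 0.00323% each way with the spline. The scaling factor differed by 0.106 at the 1 TPM threshold (permutation p = 0.00211). The cause of these changes was not tested.

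All 10 MADS-box genes kept their direction in each setting. Of the genes that changed sign, Fe_g16647 was the only one called. With the spline these were Fe_g21102 (-0.186), Fe_g45829 (-0.501), Fe_g33132 (-0.0981), Fe_g6398 (-0.0240), Fe_g10961.1 (-0.147), Fe_g3700 (-0.181), Fe_g27366.1 (-0.490), Fe_g40376 (-0.174), Fe_g16647 (-0.128), Fe_g18108.1 (-0.0530) and Fe_g19661 (-0.0787). With bands they were Fe_g45829 (-0.219), Fe_g35175.1 (-0.215), Fe_g33132 (-0.0519), Fe_g3105 (-0.139), Fe_g16647 (-0.0295) and Fe_g19661 (-0.0371). With 5 components they were Fe_g35175.1 (-0.0866), Fe_g19659 (-0.0314) and Fe_g19666.2 (-0.336), and against all other trees Fe_g35175.1 (-0.107) and Fe_g19666.2 (-0.0764). Fe_g35175.1 also turned with the straight line (-0.197), Fe_g19659 without trees that stood apart (-7.7e-05) and Fe_g40731 under 1 TPM (0.0299). Of 57 named genes called, 8 lost a call after scaling, 16 with 5 components, 17 under 1 TPM, 30 against all other trees, 9 without trees that stood apart, 55 with the spline and 53 with bands. No paired analysis was possible because the labels hold 1 group and no replicate numbers.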

Other observations

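Outside the study's lists, the largest differences belonged to genes with no annotation here. Fe_g25604 was the most different among genes higher in the high trees. It had 0.493, 29.9 and 245 TPM in the lowest, median and highest low tree and 10.6, 139.9 and 875 TPM in the high trees, a difference of 2.26 ± 0.44 on the log2(TPM + 1) scale (SE, n = 28 each, limma adjusted p = 0.00159). Its slope on Fe_g19663 in the trees between was -0.03 ± 0.18 (adjusted p = 0.93). Fe_g14512, Fe_g42790, Fe_g25199, Fe_g45632 and Fe_g22014 came next, at 1.94, 1.85, 1.63, 1.62 and 1.57. All 6 overlapped between the groups, and none had a slope that passed. The call of Fe_g22014 was lost after median-of-ratios scaling (limma adjusted p = 0.0504), and without the trees that stood apart. With 5 principal components the calls of Fe_g22014 and Fe_g25199 were lost (limma adjusted p of 0.25 and 0.385).

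On the lower side, Fe_g36275 had 2.31, 10.3 and 37.5 TPM in the low and 0.435, 2.17 and 11.8 TPM in the high trees, a difference of -1.73 ± 0.23 (SE, n = 28 each, limma adjusted p = 1.57e-06). Fe_g13796 and Fe_g13797.1 are neighbours by identifier and moved alike, at -1.48 ± 0.35 and -1.32 ± 0.34 (adjusted p of 0.0114 and 0.0197). Fe_g13796 was abundant, with a median of 184.8 TPM in the low and 78.1 TPM in the high trees. Fe_g9416, Fe_g31164.2 and Fe_g25930 differed by -1.56, -1.52 and -1.34. Fe_g31164.2 was at 0 TPM in 3 low and 17 high trees, and Fe_g23979 in 10 low and 22 high trees. These were the genes whose zeros leaned most towards the high trees. Without the trees that stood apart, the calls of Fe_g9416, Fe_g13797.1 and Fe_g23979 were lost. The call of Fe_g23979 was also lost with 5 principal components (limma adjusted p = 0.0732). With the curve of tree number none of the genes named here kept a call. The 12 largest differences kept their direction and 7 were at least as large, with SE 1.57 to 1.80 times as large. These 12 were picked for size in the same trees, so their direction in that fit is a description. Fe_g25604 had 2.17 ± 0.76, Fe_g45632 2.28 ± 0.54 and Fe_g36275 -1.71 ± 0.39 in that fit. Fe_g9416 and Fe_g13796 had -2.86 ± 0.62 and -2.23 ± 0.62 (SE, adjusted p of 0.181 and 0.352).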
